A study of Homo sapiens with 4 samples.

Results

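Messenger RNA levels of the proteasome subunits and assembly factors were compared between AGS cells treated with ornithogalum and AGS cells given its ethanol vehicle. AGS is an established human gastric adenocarcinoma line, and ornithogalum is named in the series title as a homeopathic preparation. One group received 0.01% ornithogalum and the other ethanol, each for 36 h from about the same confluency, in DMEM-F12 with serum, and each group had 2 Affymetrix Human Gene 1.0 ST arrays labelled as biological replicates. The labels do not tell if these were independent experiments. The p-values therefore measure only the array-to-array spread, which may be technical, and the use of 1 cell line limits the groups as a model. The members were all genes whose symbol starts with PSMA, PSMB, PSMC, PSMD, PSME, PSMF or PSMG and that had a transcript cluster (a set of probes for 1 transcript locus) naming no other gene. There were 47 of them among 18418 genes measured in this way, each taken from its brightest cluster. PSMC5, PSMD7 and PSMD13 had no cluster of their own in the annotation and were not analysed here.

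The proteasome degrades proteins tagged with ubiquitin. Its 20S core is a barrel of outer alpha rings and inner beta rings, and the beta subunits PSMB5, PSMB6 and PSMB7 carry the proteolytic sites. The 19S cap binds the ubiquitin chain, and its PSMC ATPases unfold the substrate and thread it into the core. Interferons induce PSMB8, PSMB9 and PSMB10, which replace the catalytic subunits in the immunoproteasome, and the PA28 activator made of PSME1 and PSME2. The chaperones PSMG1 and PSMG2 form a heterodimer, as do PSMG3 and PSMG4, and guide the building of the alpha ring. By role the 47 members comprised 14 constitutive 20S subunits, 3 immunoproteasome subunits, 2 tissue-specific core subunits, 14 cap subunits, 5 activators or inhibitors, 7 assembly factors and 2 genes that are no proteasome subunit.

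Promoter sequences are shown first because PSMB8, PSMB10, PSME1, PSME2 and PSMG4 share letters near their starts. PSMG4 is the only PSMG gene among them. RefSeq promoters (GRCh38.p14, 250 bases before to 50 after a start) were found for 41 of 47 members, and both strands were searched. The letters TGACNNNGC, the core of the antioxidant response element bound by NFE2L1 and NFE2L2, were present in 14 of the 41 members (34.1%) and in 13.3% of all 35116 promoters. The interferon-stimulated letters, GAAA followed by any 2 bases and a second GAAA, were present in 7 members (17.1%) and in 3.57% of all promoters. The gamma-activated letters TTCNNNGAA, which read the same on both strands, were present in 8 members (19.5%) and in 7.66% of all promoters. The exact run GAAAGCGAAA was picked after it had been seen in the PSME2 and PSMG4 windows, so its presence in members was fixed by that choice. It occurred in 35 of 35116 promoters, and the member genes holding it were PSMB8, PSMB10, PSME1, PSME2 and PSMG4. Members were counted by gene over all their listed starts, but the shares of all promoters are over single starts. A gene with several starts has more places for a match, so these shares are not like for like. Counted by gene, the interferon-stimulated letters were present in 1195 of 27305 genes with a promoter entry. A match describes letters, not binding. The windows below are a selection. Those with antioxidant response letters come from PSMG1 and PSMG2, both called lower in the results that follow. Of all 14 members with these letters 1 was called higher, 3 lower and 10 were not called. Over all tested clusters 6.57% were called higher and 12.6% lower. The windows are written 5′ to 3′ on the gene's strand, end at or before the start site, and have the matching letters in capitals.
PSMB10, chr16:67936851-67936896, minus strand, interferon-stimulated letters:
PSMB10: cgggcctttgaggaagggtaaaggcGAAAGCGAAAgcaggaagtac
PSME2, chr14:24146611-24146663, minus strand, interferon-stimulated letters:
PSME2: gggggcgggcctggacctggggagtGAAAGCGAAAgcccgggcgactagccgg
PSMG4, chr6:3258889-3258946, plus strand, interferon-stimulated letters:
PSMG4: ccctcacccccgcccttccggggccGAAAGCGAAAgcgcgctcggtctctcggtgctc
PSMB8, chr6:32844079-32844137, minus strand, gamma-activated letters at one of its listed starts:
PSMB8: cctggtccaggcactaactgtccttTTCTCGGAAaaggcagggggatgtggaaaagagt
PSMG1, chr21:39183601-39183659, minus strand, antioxidant response letters:
PSMG1: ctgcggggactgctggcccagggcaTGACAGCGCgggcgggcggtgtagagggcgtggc
PSMG2, chr18:12658674-12658732, plus strand, antioxidant response letters at one of its listed starts:
PSMG2: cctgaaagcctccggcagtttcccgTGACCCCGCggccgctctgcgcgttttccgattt

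The proteasome genes did not move as a unit. The 4 PSMG chaperones and the immunoproteasome subunit PSMB8 were lower in ornithogalum-treated cells, the cap subunits moved both ways, and none of the 14 constitutive core subunits passed the test. Calls are those with an adjusted p under 0.05 in limma with Benjamini-Hochberg adjustment over 21214 clusters, and differences are log2 values of ornithogalum minus vehicle, so that 1 unit is 2-fold. Of the 47 members 13 were called (27.7%), where 19.2% of all tested clusters were. The 5 called higher compare with 6.57% of clusters called higher, and the 8 called lower with 12.6% called lower. The members' median difference was -0.024, beside 0.035 over all tested clusters. After median centring of the arrays, which shifts the difference of a typical cluster to 0.20, 6 members were called higher and 6 lower, where 10.5% of all clusters were called higher and 8.95% lower. With the replicate number as a block 2 were called higher and 6 lower, beside 4.88% and 10.7% of all clusters. Without ornithogalum replicate 2, 8 members were called higher and 8 lower, beside 14.4% and 18.9% of all clusters. The groups did not overlap in 36 of the 47 members (76.6%) and in 62.2% of all tested clusters, so non-overlap was common with 2 arrays a group. In the fits without vehicle replicate 1 or 2 only the ornithogalum arrays give a spread between replicates. Their median SD over all tested clusters was 0.138, against 0.0805 with vehicle. No cluster of any gene passed in those fits, so they cannot tell which calls depend on a vehicle array. All 13 called members kept their direction in them.

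**Figure D1:**
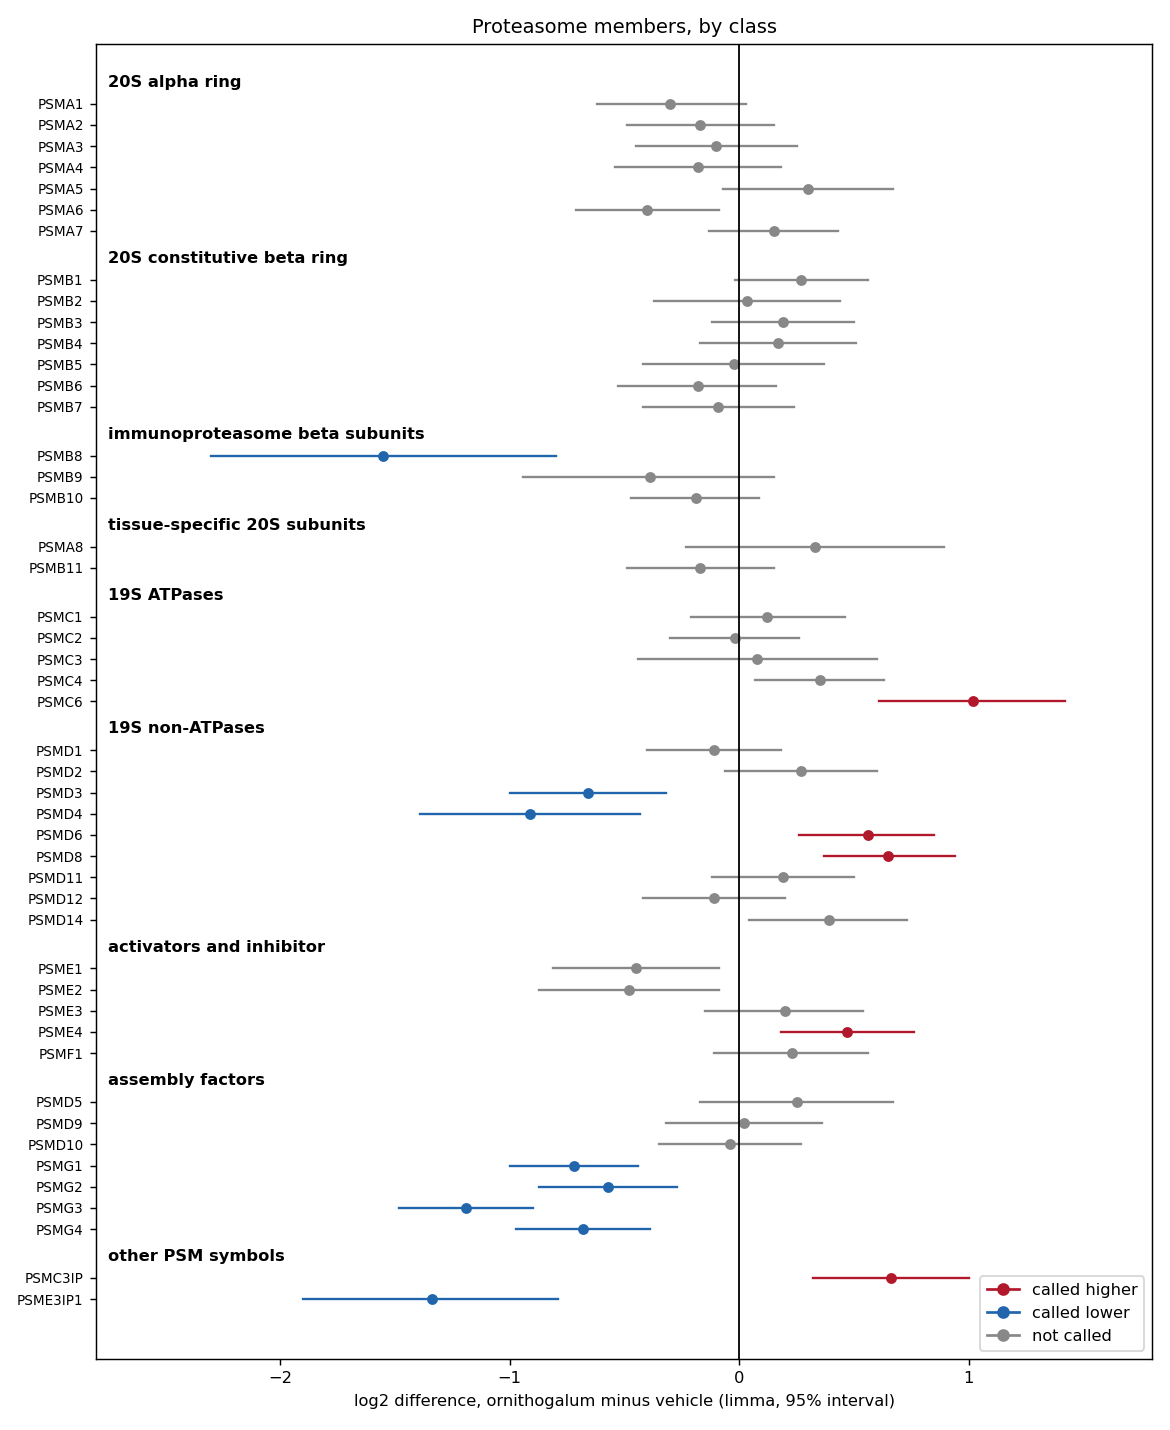
Log2 difference between ornithogalum and vehicle (x axis) for each of the 47 members, grouped by role. Points are limma estimates from 2 arrays per group and lines their 95% intervals, and colours mark the 5 members called higher and the 8 called lower. The 4 PSMG genes lie between -1.19 and -0.57, while the 14 constitutive core subunits lie between -0.40 and 0.30.

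All of PSMG1, PSMG2, PSMG3 and PSMG4 fell in ornithogalum-treated cells, by 1.48-fold to 2.29-fold. PSMG3 had log2 values of 5.34 and 5.43 with ornithogalum against 6.56 and 6.59 with vehicle. The groups lay far apart against an SD of 0.062 and 0.015 within them, and the difference was -1.19 (SE 0.11, adjusted p = 0.00462 in limma), the smallest adjusted p among the 47 members. Its partner PSMG4 read 4.10 and 4.18 with ornithogalum against 4.79 and 4.84 with vehicle. That is a 1.60-fold fall (difference -0.68, SE 0.11, limma adjusted p = 0.0175). The PSMG4 call was lost by a small margin when all 33297 clusters were tested (limma adjusted p = 0.0502). In that setting 2644 clusters were called in all, against 4076 of 21214 in the main test.

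PSMG1 read 6.15 and 6.18 with ornithogalum against 6.86 and 6.91 with vehicle. It fell 1.65-fold (difference -0.72, SE 0.11, limma adjusted p = 0.0138), again with no overlap between groups. PSMG2, its partner, read 8.23 and 8.12 against 8.78 and 8.70. It fell 1.48-fold (difference -0.57, SE 0.12, limma adjusted p = 0.0313). The PSMG2 call was lost with the replicate block (adjusted p = 0.0582) and after median centring (adjusted p = 0.103, difference -0.41). Leaving out any 1 array moved the 4 differences little, from -1.24 to -1.15 for PSMG3, -0.75 to -0.69 for PSMG1, -0.72 to -0.63 for PSMG4 and -0.62 to -0.51 for PSMG2.

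The other assembly factors with a PSM symbol did not pass the test, so that 4 of 7 were called (57.1%, beside 19.2% of all tested clusters). PSMD5, PSMD9 and PSMD10 act as chaperones of the ATPase ring of the cap, and their differences were 0.25, 0.022 and -0.040 with limma adjusted p from 0.345 to 0.925. Their 95% intervals ran from -0.17 to 0.67, from -0.32 to 0.36 and from -0.35 to 0.27. PSMD5 was dim on all arrays, with values from 1.79 to 2.31. PAAF1, a further chaperone of the cap without a PSM symbol, read 4.28 and 4.39 with ornithogalum against 5.51 and 5.17 with vehicle and fell 2.01-fold (difference -1.01, SE 0.16, limma adjusted p = 0.0141). POMP, the factor that drives beta ring assembly and joining of core intermediates, read 10.09 on both ornithogalum arrays against 9.65 and 9.74. Its difference of 0.40 (SE 0.11) pointed the opposite way to the PSMG genes and did not pass (limma adjusted p = 0.0712).

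**Figure D2:**
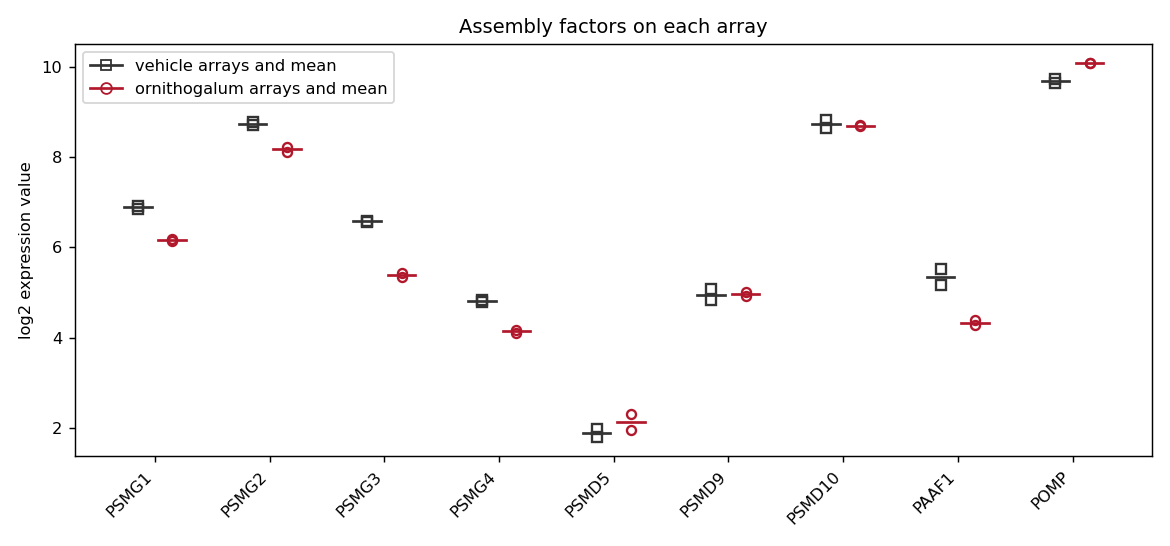
Log2 expression values (y axis) of 9 assembly factors on the 2 vehicle arrays (squares) and the 2 ornithogalum arrays (circles), with short lines at the group means. The PSMG genes and PAAF1 sit lower with ornithogalum without overlap, PSMD9 and PSMD10 overlap, and POMP sits higher with a difference of 0.40 that did not pass the test.

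Of the 3 immunoproteasome subunits PSMB8 fell and PSMB9 and PSMB10 did not pass the test (33.3% called, beside 19.2% of all tested clusters). PSMB8, the chymotrypsin-like subunit that takes the place of PSMB5, read 2.93 and 3.78 with ornithogalum against 4.83 and 4.98 with vehicle. Both treated arrays lay below both vehicle arrays, but they differed from each other by more than any other member's replicates did (SD 0.61). The fall was 2.93-fold (difference -1.55, SE 0.29, 95% interval -2.30 to -0.80, limma adjusted p = 0.0247). Without ornithogalum replicate 1 the difference was -1.12 and without replicate 2 it was -1.98. The call was lost when all 33297 clusters were tested (limma adjusted p = 0.067), a setting with fewer calls in general. The lower of the treated values is below the 25th percentile of that array's tested clusters, 3.37, and the table gives no detection call.

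PSMB9, the counterpart of PSMB6, read 4.96 and 4.40 with ornithogalum against 4.99 and 5.15 with vehicle. Its difference was -0.39 (SE 0.21, 95% interval -0.94 to 0.15, limma adjusted p = 0.268), and it rested on ornithogalum replicate 2. Without replicate 1 it was -0.67 and passed (adjusted p = 0.032), and without replicate 2 it was -0.11. PSMB10, the counterpart of PSMB7, read 4.57 and 4.54 against 4.74 and 4.75, a difference of -0.19 (SE 0.11, limma adjusted p = 0.285). Whether PSMB8 changed more than PSMB9 or PSMB10 was not tested.

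None of the constitutive catalytic subunits passed the test. PSMB5 read 7.17 and 6.95 with ornithogalum and 6.96 and 7.22 with vehicle, so that the groups overlapped, and its 95% interval ran from -0.42 to 0.37. PSMB6 read 9.08 and 9.24 against 9.24 and 9.44, with an interval from -0.53 to 0.16. PSMB7 read 7.23 and 7.26 against 7.22 and 7.45, with an interval from -0.42 to 0.24. Their limma adjusted p ran from 0.398 to 0.930.

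Of the 5 activators and inhibitors 1, PSME4, rose and the others did not pass the test. That is 20% called, beside 19.2% of all tested clusters. PSME4, the large cap protein PA200 known from DNA repair and histone turnover, read 8.44 and 8.37 with ornithogalum against 7.90 and 7.97 with vehicle. It rose 1.38-fold (difference 0.47, SE 0.11, limma adjusted p = 0.0464), a call close to the threshold that was lost without ornithogalum replicate 1 (adjusted p = 0.0655) with the replicate block (adjusted p = 0.0966), after quantile scaling (adjusted p = 0.0577) and with array weights (adjusted p = 0.0521). PSME1 and PSME2, the subunits of the interferon-inducible PA28 ring, had differences of -0.45 (SE 0.14) and -0.48 (SE 0.15). PSME1 read 7.73 and 7.46 against 8.00 and 8.08, and PSME2 read 7.48 and 7.56 against 7.84 and 8.16. Neither passed (limma adjusted p = 0.0923 and 0.0945). Both passed with an intensity trend in the variance (limma adjusted p = 0.0259 and 0.0299). That setting called more clusters in general, 5166 of 21214 against 4076 in the main test. Without ornithogalum replicate 1 the PSME1 difference was -0.58. PSME3, which forms a nuclear PA28 ring of its own, had a difference of 0.20 (limma adjusted p = 0.373), and PSMF1, the inhibitor PI31, one of 0.23 (limma adjusted p = 0.291).

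**Figure D3:**
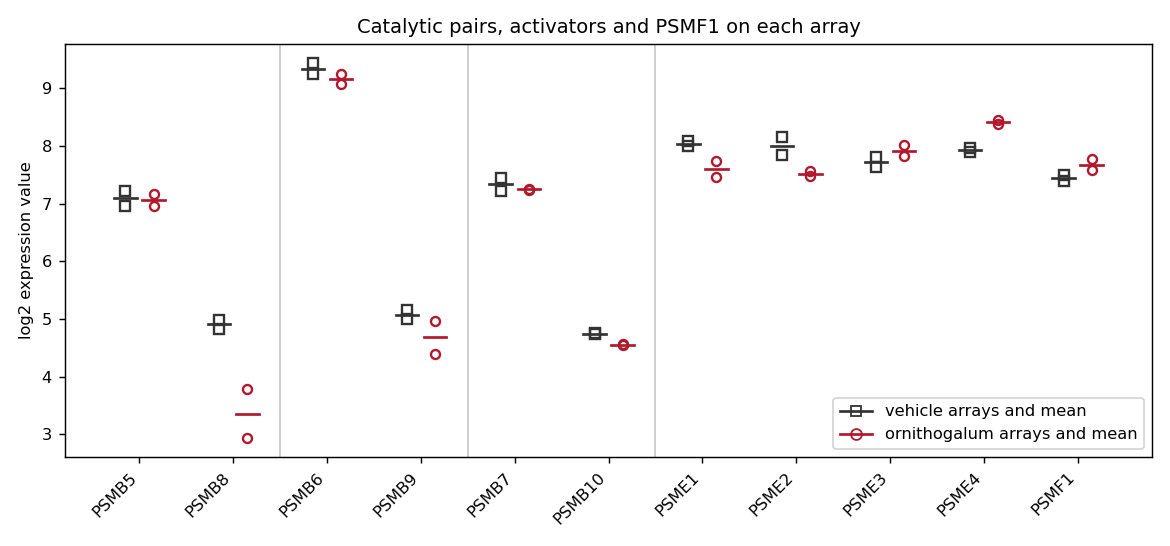
Log2 expression values (y axis) of each constitutive catalytic subunit beside its immunoproteasome counterpart, separated by grey lines, and of the activators and PSMF1, on the 2 vehicle arrays (squares) and 2 ornithogalum arrays (circles) with group means. PSMB8 drops from 4.91 to 3.36 on average, PSMB5 averages 7.09 and 7.06, and PSME4 sits above its vehicle arrays. Levels of different genes come from different probes and are not comparable with each other.

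The 5 genes whose promoter letters include GAAAGCGAAA had differences of -1.55 (PSMB8), -0.68 (PSMG4), -0.48 (PSME2), -0.45 (PSME1) and -0.19 (PSMB10), of which the first 2 passed the test. Over the 7 members with the broader interferon-stimulated letters the median difference was -0.45, with 0 called higher and 2 lower. The remaining 2 of these, PSMA4 and PSMB4, had differences of -0.18 and 0.17. Of the 14 members with antioxidant response letters 1 was called higher (PSME4) and 3 lower (PSMD3, PSMG1 and PSMG2), with a median of -0.14. Over all tested clusters 6.57% were called higher and 12.6% lower, with a median of 0.035, and 27.7% of the 47 members were called. No link between these letters and the levels was tested.

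In the constitutive 20S core 0 of 14 subunits were called by limma, beside 19.2% of all tested clusters. PSMA6 alone, 1 of the 14, had an unadjusted limma p under 0.05, as did 7160 of all 21214 tested clusters. The 7 alpha ring subunits had a median difference of -0.17 and the 7 beta ring subunits one of 0.033. Differences ran from -0.40 for PSMA6 to 0.30 for PSMA5, and each of the 14 had a 95% interval that stayed within 2-fold in either direction. PSMA6, an alpha ring subunit, read 9.24 on both ornithogalum arrays against 9.55 and 9.72 (SE 0.12, limma adjusted p = 0.0855). It passed with an intensity trend (adjusted p = 0.0111), a setting that called more clusters in general. PSMA1, PSMA2, PSMA3 and PSMA4 had differences of -0.30, -0.17, -0.10 and -0.18, while PSMA7 had one of 0.15. PSMB1, PSMB2, PSMB3 and PSMB4 had differences of 0.27, 0.033, 0.19 and 0.17. Without ornithogalum replicate 2, PSMA5 passed (0.45, adjusted p = 0.042). The tissue-specific PSMA8, known from testis, and PSMB11, known from thymus, were dim on all arrays, with values from 1.48 to 2.17 and from 2.79 to 3.09. Their differences were 0.33 and -0.17 and neither passed.

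In the 19S cap 3 of 14 subunits rose and 2 fell (35.7% called, beside 19.2% of all tested clusters). PSMC6, an ATPase of the ring that unfolds substrates, read 7.73 and 8.06 with ornithogalum against 6.95 and 6.81 with vehicle. It rose 2.02-fold (difference 1.02, SE 0.16, limma adjusted p = 0.0144), the largest rise among the members. A second cluster of PSMC6 read 7.33 and 7.30 against 6.70 and 6.29 and also passed (1.77-fold higher, adjusted p = 0.0304). RefSeq lists 3 pseudogenes of PSMC6, and 1 each of the called PSMD4, PSMD8 and PSMG3. Whether probes of these clusters match a pseudogene was not checked, so those values are uncertain as to their source. The other 4 measured ATPases, PSMC1, PSMC2, PSMC3 and PSMC4, had differences of 0.12, -0.018, 0.078 and 0.35 and did not pass. PSMC4 came nearest (7.77 and 7.76 against 7.44 and 7.40, SE 0.11, limma adjusted p = 0.0911) and passed after median centring (adjusted p = 0.0484). It also passed with an intensity trend (adjusted p = 0.0178), a setting that called more clusters in general.

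Among the 9 non-ATPase subunits PSMD8 and PSMD6 rose and PSMD4 and PSMD3 fell (44.4% called, beside 19.2% of all tested clusters). PSMD8, a lid subunit, read 10.17 and 10.18 with ornithogalum against 9.49 and 9.55 with vehicle and rose 1.57-fold (difference 0.65, SE 0.11, limma adjusted p = 0.0181). PSMD6, another lid subunit, read 7.25 and 7.37 against 6.76 and 6.73 and rose 1.47-fold (difference 0.56, SE 0.12, limma adjusted p = 0.0309), a call lost with the replicate block (adjusted p = 0.0644). PSMD4, a ubiquitin receptor of the cap, read 4.46 and 4.88 against 5.45 and 5.71. It fell 1.88-fold (difference -0.91, SE 0.19, limma adjusted p = 0.0314) with no overlap between groups. PSMD3, a lid subunit, read 6.64 and 6.52 against 7.13 and 7.35 and fell 1.58-fold (difference -0.66, SE 0.13, limma adjusted p = 0.029). Its call was lost with the replicate block (adjusted p = 0.0524) and after median centring (adjusted p = 0.0807). PSMD14, the deubiquitinating enzyme of the lid, read 7.56 and 7.32 against 7.08 and 7.03. Its difference of 0.39 did not pass (SE 0.13, limma adjusted p = 0.114), though it passed without ornithogalum replicate 2 (0.51, adjusted p = 0.0337). PSMD1, PSMD2, PSMD11 and PSMD12, the remaining scaffold and lid subunits, had differences of -0.11, 0.27, 0.19 and -0.11. The cap's median difference was 0.15, and 9 of 14 subunits lay above 0.

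The remaining genes carry a PSM symbol without being proteasome subunits. PSME3IP1, a nuclear protein that binds the PSME3 ring, read 5.34 and 4.81 with ornithogalum against 6.27 and 6.56 with vehicle and fell 2.54-fold (difference -1.34, SE 0.22, limma adjusted p = 0.0159). PSMC3IP, known as HOP2 for its role in meiotic recombination, read 4.51 and 4.73 against 4.02 and 3.90 and rose 1.58-fold (difference 0.66, SE 0.13, limma adjusted p = 0.0297). The PSMC3IP call was lost with the replicate block (adjusted p = 0.0531). Without this pair 11 of 45 members were called (24.4%, beside 19.2% of all tested clusters), 4 higher and 7 lower.

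Proteins that bind the proteasome without a PSM symbol also moved both ways. Of 14 listed and measured, 4 rose and 3 fell, with a median difference of 0.077. That is 50% called, beside 19.2% of all tested clusters. This list and those that follow were chosen with earlier results of these data known, so their shares do not measure an excess. ZFAND5, a zinc finger protein that stimulates the proteasome, rose 3.03-fold, from 7.98 and 7.77 to 9.46 and 9.48 (difference 1.60, SE 0.13, limma adjusted p = 0.00366). PITHD1 rose 2.68-fold and TXNL1, a thioredoxin of the cap, 1.96-fold, while SEM1, the smallest cap subunit, rose 1.47-fold (limma adjusted p from 0.00359 to 0.0315). UCHL5, a cap deubiquitinase, fell 1.94-fold, PAAF1 fell 2.01-fold and UBE3C, a ubiquitin ligase that acts on the proteasome, fell 1.42-fold (limma adjusted p from 0.00723 to 0.0361). With the replicate block the SEM1 and UBE3C calls were lost (adjusted p = 0.0628 and 0.0782), and UBE3C also under each of the 3 other scalings (quantile, cyclic loess and median centring). ADRM1, the receptor that anchors UCHL5, and USP14, a further deubiquitinase of the cap, had differences of -0.029 and -0.19 and did not pass.

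NFE2L1 is the transcription factor that raises proteasome genes when proteasome activity is short. Its own transcript had a difference of 0.070 (SE 0.15, limma adjusted p = 0.772). In its list of 12 measured genes 33.3% were called, beside 19.2% of all tested clusters. The 3 that rose were the small MAF partner MAFG (1.89-fold), the repressor BACH1 (1.62-fold) and the ligase SYVN1 (1.54-fold). The 1 that fell was the F-box gene BTRC (1.36-fold, limma adjusted p = 0.0499). SYVN1 and BTRC were lost without ornithogalum replicate 1 (adjusted p = 0.053 and 0.0581), and BTRC also with the replicate block (adjusted p = 0.106), with array weights (adjusted p = 0.0565) and under each of the 3 other scalings.

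Among 8 measured genes of ubiquitin supply and activation 2 rose and 3 fell (62.5% called, beside 19.2% of all tested clusters). The alternative activating enzyme UBA6 rose 1.94-fold, from 7.84 and 7.66 to 8.59 and 8.82, while the main activating enzyme UBA1 fell 1.66-fold, from 8.58 and 8.50 to 7.81 on both arrays (limma adjusted p = 0.0128 and 0.0139). UBE2S, the chain-extending enzyme of the anaphase-promoting complex, rose 2.22-fold, and UBE2R2, an enzyme of cullin ligases, fell 1.78-fold. USP5, which recycles free chains, fell 1.38-fold (limma adjusted p = 0.0487), a call lost without ornithogalum replicate 2 (adjusted p = 0.052), with the replicate block (adjusted p = 0.0955), with array weights (adjusted p = 0.0518) and under each of the 3 other scalings. The polyubiquitin gene UBB had a difference of -0.14 and did not pass.

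Shuttle and segregase factors, which bring substrates to the proteasome, rose in 2 and fell in 2 of 15 measured. That is 26.7% called, beside 19.2% of all tested clusters. UBQLN1, a shuttle protein, rose 1.92-fold and UBXN7, an adaptor of the VCP segregase, rose 1.88-fold. VCP itself fell from 8.49 and 8.52 to 7.85 and 7.99 (difference -0.59, SE 0.12, limma adjusted p = 0.0281), and UBXN4 fell 1.44-fold. The VCP and UBXN4 calls were lost with the replicate block (adjusted p = 0.0544 and 0.0713) and after median centring (0.0627 and 0.102).

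Of 9 measured genes of antigen peptide supply, which handle what the immunoproteasome makes, 1 rose and 0 fell. That is 11.1% called, beside 19.2% of all tested clusters. B2M, the light chain of class I molecules, rose 1.56-fold, from 8.72 on both vehicle arrays to 9.38 and 9.34 (limma adjusted p = 0.0186). TAP1 and TAP2, the peptide transporter genes that neighbour PSMB8 in the genome, had differences of 0.18 and 0.090 with limma adjusted p of 0.34 and 0.678. IRF1, a regulator of immunoproteasome genes, had a difference of -0.25 (limma adjusted p = 0.179).

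**Figure D4:**
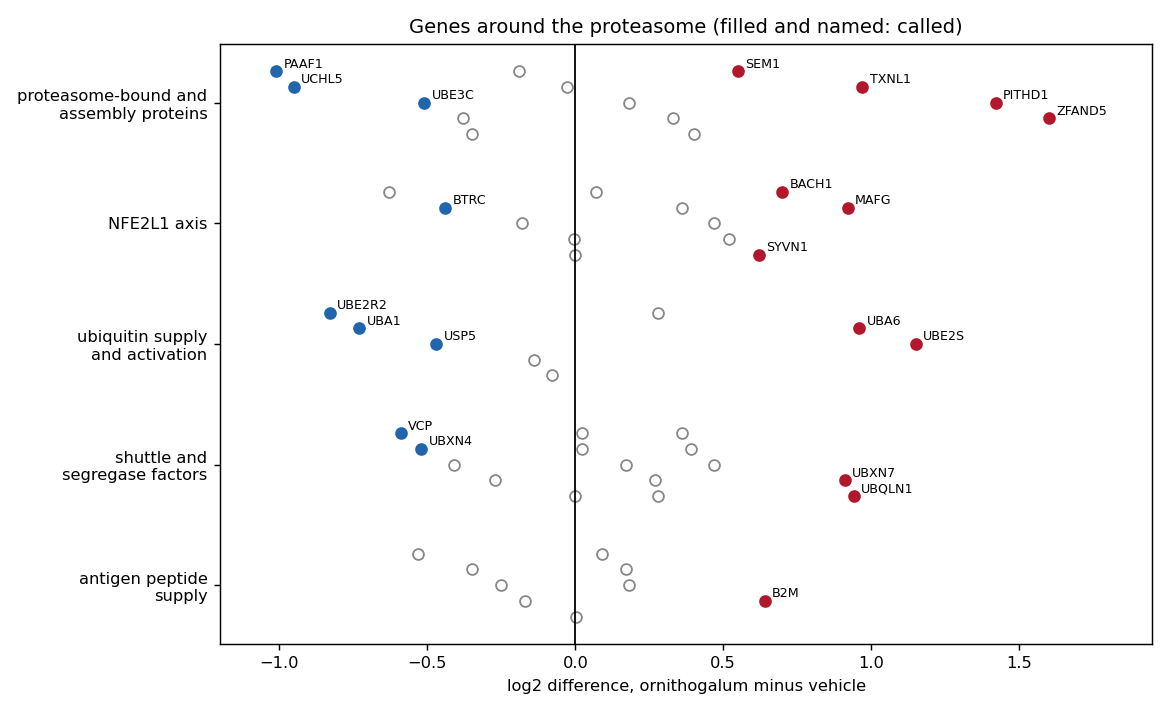
Log2 difference between ornithogalum and vehicle (x axis) for the measured genes of 5 lists around the proteasome, 1 circle per gene. Filled and named circles passed limma's test, red for higher and blue for lower, and each list but antigen peptide supply has called genes on both sides.

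The arrays themselves differed in shape and spread. Tested clusters had array medians of 4.48 and 4.62 with ornithogalum and of 4.71 and 4.70 with vehicle. Their interquartile ranges were narrower with ornithogalum, 2.44 and 2.56, than with vehicle, 2.72 and 2.71. What this does to bright and dim members was not tested beyond the other scalings. The median SD between replicates over the 47 members was 0.109 with ornithogalum and 0.0796 with vehicle. Epithelial markers were present (6 measured, array medians from 8.26 to 8.72), with KRT19 2.63-fold lower with ornithogalum. Array medians of 6 leukocyte markers lay between 3.82 and 3.98, of 6 fibroblast markers between 3.95 and 4.07 and of 4 endothelial markers between 2.98 and 3.30. Of these 16 markers CD68 was called (2.26-fold higher), and PTPRC, the defining leukocyte gene, had values from 1.44 to 1.74. LYZ was bright on all arrays, from 11.70 to 11.76. Fewer cells and less RNA per cell cannot be told apart in these bulk samples.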

How the data were processed

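Log2 expression values were deposited by the authors for 33297 transcript clusters on 4 arrays. The submitters' processing notes name RMA, which corrects background, quantile-scales and summarises probes, and Affymetrix Expression Console 1.1. Its settings were not given in these sources. With 2 arrays a group, precision is limited by their number.

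The platform annotation of 2016 named 21214 clusters, 19461 with 1 symbol, and these 21214 were tested together by limma 3.58.1 under R 4.3.3, with lmFit, eBayes and two-sided Benjamini-Hochberg adjusted p-values, without a filter on dim clusters. Intervals are limma's moderated 95% intervals. A gene took its cluster of highest mean value over the 4 arrays. PSMB8 and PSMB9 each had 3 clusters with identical values, counted once. The code was tested on simulated data. Named members were those called, the catalytic subunits, activators and PSMG chaperones, and other called genes of each list. Members and lists were chosen with earlier results of these data known. Alternatives were the replicate block, leaving out each array, other scalings, cluster sets, variance models and thresholds. Array weights were added after seeing the data.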

Additional observations from a re-analysis of the deposited data

How the results depend on the processing

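Counts of members called higher and lower were 5 and 8. The replicate block, which leaves fewer degrees of freedom, gave 2 higher and 6 lower, and the deviations of same-numbered arrays correlated at -0.0585, so the numbers are not treated as pairs. Testing all 33297 clusters gave 1 and 3. Calls became fewer in general there, with 2644 of 33297 clusters called against 4076 of 21214 in the main test. By limma adjusted p the lower calls lost there were PSMB8 (0.067), PSMG2 (0.0765), PSMG4 (0.0502), PSMD3 (0.0731) and PSMD4 (0.0789). The higher calls lost were PSMD6 (0.0759), PSMD8 (0.0511), PSME4 (0.101) and PSMC3IP (0.0742). Calls outside the members, B2M (0.052) among them, were lost there too. At adjusted p under 0.01 there were 0 and 1 (PSMG3), with 7 and 11 at an unadjusted p under 0.05. Over all 21214 tested clusters 7160 had an unadjusted limma p under 0.05. The share of all clusters with an adjusted p under 0.01 was not counted. Leaving out 1 array gave 0 to 8 higher and 0 to 10 lower. The other settings gave 4 to 7 higher and 6 to 12 lower.

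The 20S core median went from -0.057 to 0.10 after median centring and ran from -0.12 to 0.058 without 1 array. The cap median of 0.15 became 0.31 after centring and ran from 0.16 to 0.26. The immunoproteasome median of -0.39 ran from -0.67 to -0.18. The activator median of 0.20 became 0.36 after centring. The PSMG median of -0.70 became -0.65 after quantile scaling, -0.62 after cyclic loess and -0.54 after centring.

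No called member changed sign in any setting that tested it. PSMB8, PSMG4 and PSMC3IP were too dim for the set of brighter clusters. Members not called changed sign as follows. After centring PSMA3 was 0.059, PSMB5 0.14, PSMB7 0.069, PSMC2 0.14, PSMD1 0.049, PSMD10 0.12 and PSMD12 0.051. After quantile scaling PSMB2 was -0.056, PSMB5 0.0016 and PSMD12 0.10, and after cyclic loess -0.0056, 0.0031 and 0.029. Without 1 array the range was, for PSMA3 from -0.23 to 0.027, PSMB2 from -0.15 to 0.22, PSMB5 from -0.15 to 0.11, PSMB7 from -0.20 to 0.021, PSMC3 from -0.16 to 0.31, PSMD9 from -0.092 to 0.14 and PSMD10 from -0.13 to 0.048.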

Other observations

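The 34 genes whose RefSeq promoter holds GAAAGCGAAA were looked up after these letters had been seen in the PSME2 and PSMG4 windows. Of the 30 measured, 2 were called higher (6.67%) and 7 lower (23.3%), with a median difference of -0.17. These include the 5 proteasome genes, 2 of which had prompted the lookup. Without the 5, the remaining 25 genes had 2 called higher and 5 lower (20%), with a median difference of 0.072, so the negative median rests on the proteasome genes. Over all 14240 measured genes with a promoter entry 7.28% were called higher and 13.8% lower, with a median of 0.025. The lower genes were PARP14 (3.08-fold), PSMB8, RNF31 (2.46-fold), ATXN7L3 (2.45-fold), SHFL (1.65-fold), MYD88 (1.61-fold) and PSMG4. PARP14 and SHFL are known as interferon-induced genes, RNF31 is a subunit of the linear ubiquitin ligase, and MYD88 is an adaptor of Toll-like receptors. The higher genes were UBFD1 (1.49-fold) and ALOXE3 (1.73-fold). TAP1 and TAP2 hold the letters too and did not pass. For the broader interferon-stimulated letters, 101 of 587 measured genes were called lower (17.2%) and 36 higher (6.13%), with a median of 0.039.

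Measured neighbours of the PSMG genes in RefSeq order were not called. BRWD1 beside PSMG1, CEP76 beside PSMG2, TMEM184A beside PSMG3 and SLC22A23 beside PSMG4 had differences of 0.12, -0.23, 0.0040 and -0.34, with limma adjusted p from 0.132 to 0.987.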
